A study of Homo sapiens with 4 samples.

Results

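The genes described here encode the enzymes of cholesterol and fatty acid synthesis, together with the proteins that sense sterols and switch these enzymes on. The 31 members were taken by symbol from a fixed list, and all 31 had a row among the 19826 gene rows of the deposited table. They were followed in BE(2)C cells, a human neuroblastoma line, that carried an introduced MYCN open reading frame (BE(2)C:MYCN-ORF). Every group carried this reading frame and was harvested 48 hours after transfection with an siRNA and a miRNA mimic, and polyA RNA was sequenced. The 4 groups were siMYCN with let-7a, siMYCN with the control mimic miRCon, the control siRNA siCon with let-7a, and siCon with miRCon. Each group had 1 library, and differences between single libraries therefore stand without replicates. Values are given as TPM-like values, which are relative to each library's total and to transcript length, and read depth is unknown.

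MYCN encodes the transcription factor against which the siRNA was directed. Its level was 1197 and 1238 TPM-like in the siMYCN libraries with let-7a and with miRCon, and at 1433 and 1449 in the siCon libraries with let-7a and with miRCon. The changes were -16.4% with let-7a and -14.5% with miRCon, with an adjusted p of 0.0584 by limma. That p was 0.0202 with rescaled values and 0.0441 at a mean of at least 20, and it ranged from 0.0202 to 0.260 over 6 alternatives. Transcripts of the introduced reading frame and of the cells' own gene were not separated. LIN28B, an established let-7 target, had changes with let-7a of -53.2% in siMYCN cells and -38.6% in siCon cells. Its adjusted p for let-7a was 0.663 by limma, so it was not called. That was also the lowest adjusted p for let-7a of all genes tested. Mitochondrially encoded transcripts made up 29.3% and 28.4% of the siMYCN libraries with let-7a and with miRCon, against 32.1% and 31.7% of the siCon libraries. All 8 noradrenergic neuroblastoma markers had a mean of at least 1, and their summed level lay between 1868 and 2088 in the 4 libraries. This sum does not show that each marker was level. With let-7a and with miRCon, GATA2 had 679 and 513 in the siMYCN libraries, against 446 and 406 in the siCon libraries. In the same order TH had 10.7 and 11.6, against 6.47 and 6.01, while ISL1 had 65.1 and 88.3, against 116 and 128. Of 6 fibroblast or mesenchymal markers 5 had a mean of at least 1, with sums between 243 and 293, of 4 epithelial markers 2 did, with sums between 7.27 and 10.8, and of 4 blood markers 1 did, with sums between 3.22 and 4.53. CDH1 was listed at 0 in every library, and PTPRC was at 0.22 or less. The part of the mitochondrial share and of these markers in the results below was not tested.

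Cholesterol is built from acetyl-CoA through mevalonate, farnesyl diphosphate, squalene and lanosterol. Fatty acids are built from the same acetyl-CoA, by carboxylation, chain extension, desaturation and elongation. Both pathways are driven by the SREBP transcription factors, which sit in the endoplasmic reticulum as membrane-bound precursors. When sterols are scarce, the escort protein SCAP carries SREBP to the Golgi, where proteases release its active part, and when sterols are plentiful INSIG proteins hold SCAP back. SREBP-2, from SREBF2, mainly drives sterol genes and SREBP-1, from SREBF1, mainly drives fatty acid genes.

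The sequences below show the regulatory words that the treatments and the pathway bring into play. The mature let-7a sequence is shown because its seed, bases 2 to 8, in capitals, sets which messages the mimic can pair with. It is identical at its 3 loci, on chromosomes 9, 11 and 22, and comes from RefSeq on GRCh38.p14.
hsa-let-7a-5p: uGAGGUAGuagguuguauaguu

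The longest 3' UTR of each member in GENCODE release 29, on GRCh38, was searched for CTACCTCA (8mer), CTACCTC (7mer-m8) and TACCTCA (7mer-A1), the words that match this seed. All 31 members had a 3' UTR, and they include 4 whose levels were too low for testing. An 8mer was found in 2 members (STARD4 and SCD, 6.45%), against 4.42% of 8916 tested genes with a 3' UTR. Of the 31 members, 27 held none of the words (87.1%), against 81.0% of those genes. SREBF2 held a 7mer-m8. The sites of STARD4, SCD and SREBF2 are shown with up to 22 bases that end in the matching word, which is in capitals. They lie at chr5:111499584-111499605 on the minus strand (STARD4), chr10:100364381-100364402 on the plus strand (SCD), and chr22:41906511-41906532 on the plus strand (SREBF2).
STARD4 3' UTR, 8mer: ctcaaggggttattCTACCTCA
SCD 3' UTR, 8mer: ataataatactgacCTACCTCA
SREBF2 3' UTR, 7mer-m8: cccctaccccatctcCTACCTC

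Promoters were searched on both strands, over the 250 bases before the RefSeq start on GRCh38.p14, for the sterol element TCACNCCAC bound by SREBPs, for CCAAT, the box of NF-Y, a factor known to work beside SREBPs, and for CACGTG, the E-box of MYC proteins. These words do not overlap each other in the promoters shown. RefSeq entries matched 27 members, without ACAT2, FDFT1, SQLE and FASN. The sterol element was in 1 of the 27 (3.70%), against 0.841% of 7256 promoters of tested genes. CCAAT was in 17 of 27 (63.0%), against 35.9%, and CACGTG in 3 of 27 (11.1%; SC5D, INSIG1 and SCAP), against 9.44%. Among all 27305 promoters the shares were 0.875%, 33.0% and 6.49%. The 27 members include HSD17B7, MVK, FDPS and TM7SF2, whose levels were too low for testing and which all hold CCAAT. The shares among tested members alone were not counted. The share of members with the sterol element rests on 1 promoter. Only this word was searched, so other forms of the element were not counted. A match describes letters, not binding, and the lack of a match does not show that SREBPs do not bind. Shown are the promoters of SREBF2, the member with the sterol element, and of STARD4 and INSIG1, both lower with siMYCN, with the matches in capitals. They lie at chr22:41832855-41833104 on the plus strand (SREBF2), chr5:111512536-111512785 on the minus strand (STARD4) and chr7:155297628-155297877 on the plus strand (INSIG1).
SREBF2 promoter: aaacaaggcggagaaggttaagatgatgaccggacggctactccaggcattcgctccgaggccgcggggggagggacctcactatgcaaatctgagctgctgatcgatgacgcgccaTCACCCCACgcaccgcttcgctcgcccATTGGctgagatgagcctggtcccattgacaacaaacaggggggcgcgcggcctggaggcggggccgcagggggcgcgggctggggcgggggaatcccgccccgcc
STARD4 promoter: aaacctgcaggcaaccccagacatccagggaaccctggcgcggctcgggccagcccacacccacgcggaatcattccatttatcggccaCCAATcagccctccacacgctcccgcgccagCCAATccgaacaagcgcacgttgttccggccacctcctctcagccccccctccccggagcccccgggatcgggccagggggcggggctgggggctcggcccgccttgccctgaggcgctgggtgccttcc
INSIG1 promoter: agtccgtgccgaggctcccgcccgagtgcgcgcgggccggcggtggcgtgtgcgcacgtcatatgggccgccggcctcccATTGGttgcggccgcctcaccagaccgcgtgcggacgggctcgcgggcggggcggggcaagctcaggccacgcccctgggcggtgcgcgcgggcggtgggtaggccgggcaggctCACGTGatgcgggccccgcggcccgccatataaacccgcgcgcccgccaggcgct

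The pathway was well expressed in these cells. Together the 31 members had 2539 TPM-like in the siMYCN library with let-7a, 2577 in that with miRCon, 2753 in the siCon library with let-7a and 2733 in that with miRCon, which is 0.296%, 0.301%, 0.319% and 0.319% of each library's total. The 7 fatty acid genes made up most of this sum, at 1360, 1404, 1472 and 1476 in the same order. SCD, the desaturase that makes monounsaturated fatty acids, was the most abundant member, followed by ACLY, which makes cytosolic acetyl-CoA from citrate, and FASN, the fatty acid synthase.

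**Figure D1:**
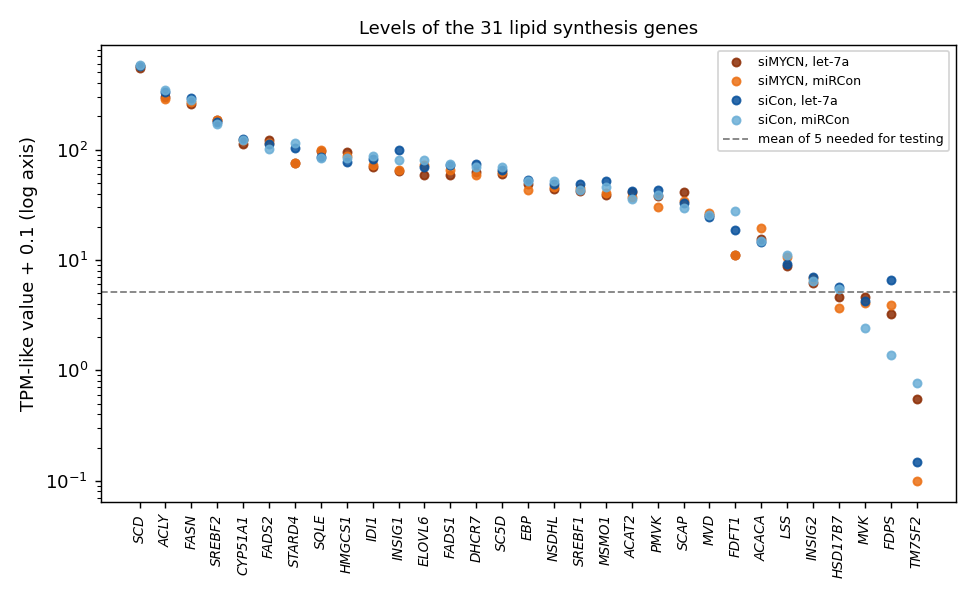
TPM-like value plus 0.1 (log axis) of each of the 31 genes in each of the 4 libraries, ordered by mean; points are single libraries and the dashed line marks the mean of 5 needed for testing. SCD lies between 546 and 579 in all 4 libraries, and the 4 genes at the right end, HSD17B7, MVK, FDPS and TM7SF2, have means under 5.

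Of the 31 members, 27 reached the mean value of 5 that testing required. The 4 below it were HSD17B7, a sterol reductase of the late pathway, MVK, the mevalonate kinase, FDPS, which makes farnesyl diphosphate, and TM7SF2, a sterol reductase. HSD17B7 had 4.51 and 3.55 TPM-like in the siMYCN libraries with let-7a and with miRCon, against 5.57 and 5.39 in the siCon libraries with let-7a and with miRCon. MVK had 4.48 and 4.01 with siMYCN, against 4.13 and 2.30 with siCon, and FDPS had 3.11 and 3.78 with siMYCN, against 6.56 and 1.28 with siCon. HSD17B7 was lower in both siMYCN libraries than in both siCon libraries, while for MVK and FDPS the groups overlapped. TM7SF2 was at 0.448 and listed at 0 with siMYCN, against 0.0478 and 0.670 with siCon. GENCODE names 8 pseudogenes of FDPS and 2 of HSD17B7, and MVK and TM7SF2 each overlap another coding gene. The part of such copies and neighbours in these low values was not tested. CYP51A1, a tested member, has 3 named pseudogenes, and their part in its values was not tested either.

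siMYCN was set against siCon once in the presence of let-7a and once with miRCon, in pairs with no library in common. Since 1 was added to each value before taking log2, the printed fold changes of low genes are smaller than the ratios of their values. Most of the tested members were slightly lower with siMYCN. Of 27, 17 were lower in both pairs (63.0%), against 27.4% of all 9324 tested genes, and 7 were higher in both (25.9%), against 43.2% of all genes. Their median log2 fold change was -0.15 with let-7a and -0.072 with miRCon, beside 0.048 and 0.069 over all genes tested. Over both pairs the median was -0.13, beside 0.056 for all genes, and with values rescaled by median ratios it was -0.20, beside -0.0053. Most effects were small, and they ranged from -0.98 (FDFT1) to 0.27 (SCAP) over both pairs. By limma with Benjamini-Hochberg adjustment over all genes, 1 member was called lower, against 1.36% of genes, and 0 higher, against 2.07%; either way the background was 3.43%. At an unadjusted p under 0.05, 8 members were lower, against 9.4% of genes, and 1 was higher, against 17.0%. In RNA from bulk cultures, fewer cells of a type and less RNA per cell cannot be told apart. Where siMYCN and siCon values are said to overlap or not, this only describes the 4 libraries. The share of all genes without overlap was not counted.

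**Figure D2:**
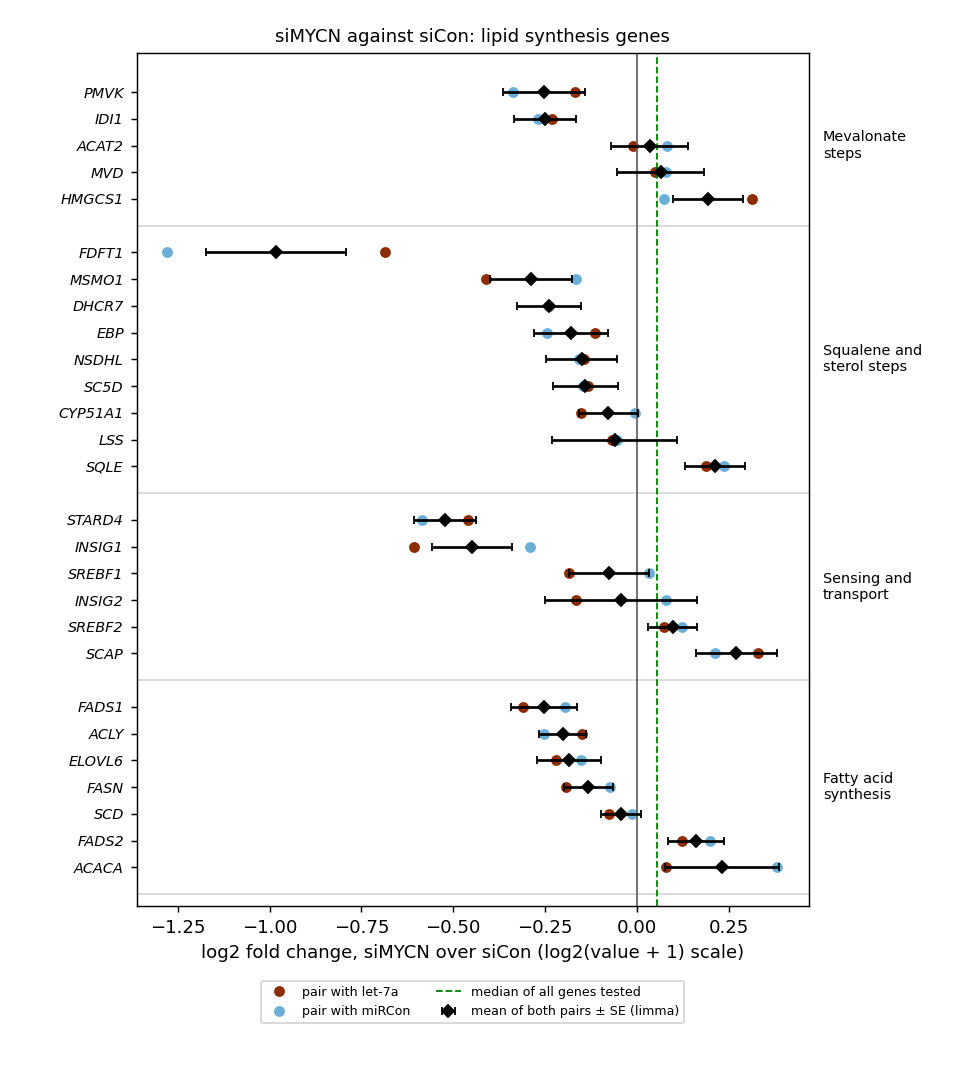
Log2 fold change of siMYCN over siCon for the 27 tested members, by role; circles are single pairs of libraries (with let-7a or with miRCon), diamonds the mean of both pairs with its SE from the additive limma model, and the dashed line the median of all genes tested, 0.056. FDFT1, STARD4 and INSIG1 lie farthest to the left, and SCAP, ACACA and SQLE farthest to the right.

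Among the genes of sterol sensing and transport, STARD4 fell with siMYCN. STARD4 is a soluble carrier that moves cholesterol between membranes and is itself an SREBP-2 target, and its gene lies on chromosome 5 from 111496033 to 111512590, on the minus strand. It was at 75.6 TPM-like in both siMYCN libraries, with let-7a and with miRCon, against 104 and 114 in the siCon libraries with let-7a and with miRCon. Both siMYCN libraries lay below both siCon libraries. The changes were -27.5% with let-7a and -33.6% with miRCon, or log2 fold changes of -0.46 and -0.59. Over both pairs the value was -0.52 ± 0.084 (model SE from limma, 4 libraries), with an adjusted p of 0.0469 by limma. The call ended with a pseudocount of 5 (adjusted p = 0.0505 by limma), with no filter on low values (0.193) and without limma's trend (0.136), and the adjusted p ranged from 0.0181 to 0.193 over 6 alternatives.

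INSIG1, which retains SCAP in the endoplasmic reticulum and is itself switched on by SREBP, moved the same way without passing the test. Its level was 64.5 and 65.6 in the siMYCN libraries with let-7a and with miRCon, against 98.8 and 80.5 in the siCon libraries. The groups did not overlap, and the highest library was siCon with let-7a. The log2 fold changes were -0.61 with let-7a and -0.29 with miRCon, and over both pairs -0.45 ± 0.11 (SE, n = 4 libraries; adjusted p = 0.0792 by limma). With rescaled values the adjusted p was 0.0368, and it ranged from 0.0368 to 0.216 over 6 alternatives. INSIG2, its less abundant relative, had 6.09 and 6.71 with siMYCN, against 6.95 and 6.29 with siCon, and these overlapped.

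The genes of the SREBP factors themselves stayed within narrow ranges. SREBF2 had 186 and 187 TPM-like with siMYCN, against 177 and 172 with siCon, a log2 fold change of 0.098 ± 0.068 over both pairs (SE, n = 4 libraries; adjusted p = 0.408 by limma). SREBF1 had 42.3 and 44.4 with siMYCN, against 48.2 and 43.3 with siCon, and its groups overlapped. Per length, SREBF2 was several times as abundant as SREBF1, it was slightly higher in both siMYCN libraries, and neither gene passed the test. SCAP, the escort, had 41.2 and 34.5 with siMYCN, against 32.6 and 29.6 with siCon. It was highest where both treatments met, and its log2 fold change of 0.27 ± 0.11 over both pairs did not pass the test (SE, n = 4 libraries; adjusted p = 0.197 by limma).

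**Figure D3:**
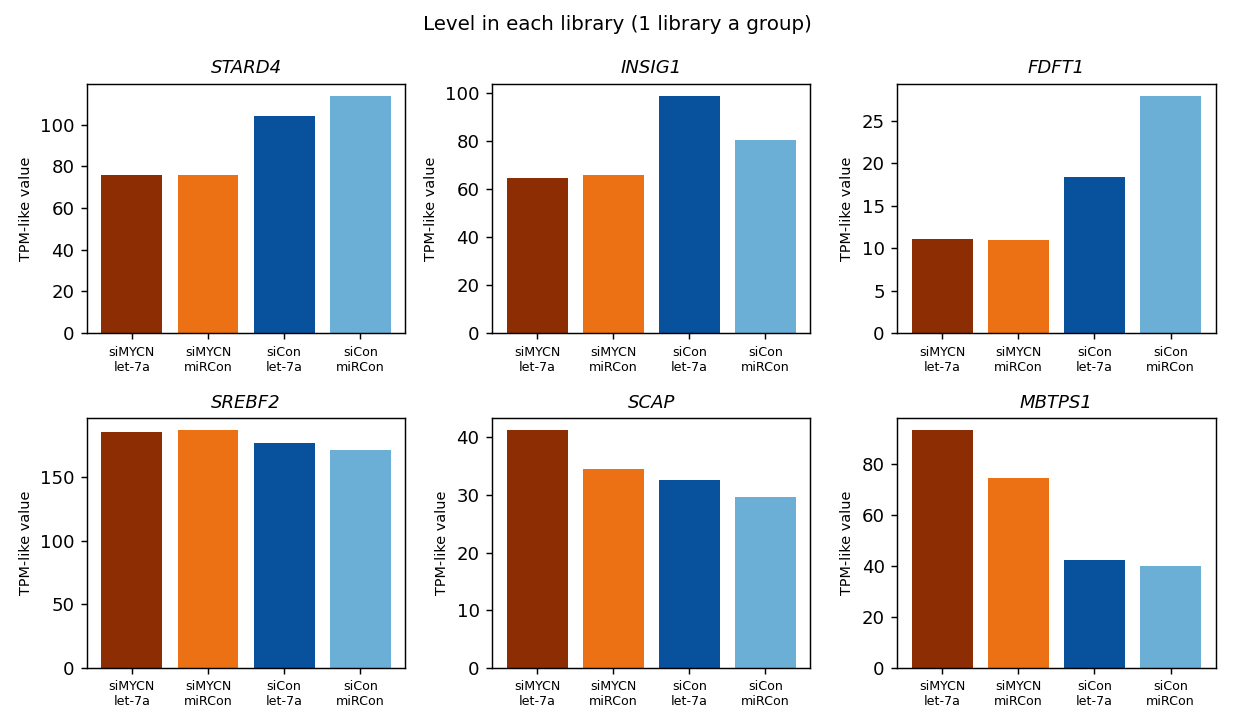
TPM-like value in each of the 4 libraries (1 library a group, no error bars) for STARD4, INSIG1, FDFT1, SREBF2, SCAP and MBTPS1. The 2 siMYCN bars are below both siCon bars for STARD4, INSIG1 and FDFT1, and above both for SREBF2, SCAP and MBTPS1.

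The steps from acetyl-CoA to farnesyl diphosphate were mixed. Of 5 tested members, 2 were lower in both pairs, 2 higher in both and 1 split. HMGCS1, the synthase that makes HMG-CoA, had 95.3 and 88.0 TPM-like with siMYCN, against 76.5 and 83.5 with siCon, so both siMYCN libraries were higher. IDI1, the isomerase of the isoprene units, ran the other way, with 69.3 and 72.6 with siMYCN, against 81.5 and 87.7 with siCon. PMVK, phosphomevalonate kinase, had 38.1 and 30.1 with siMYCN, against 42.9 and 38.3 with siCon. IDI1 and PMVK each had a log2 fold change of -0.25 over both pairs (adjusted p = 0.140 and 0.221 by limma), and that of HMGCS1 was 0.19 (adjusted p = 0.265). MVD, the decarboxylase, and ACAT2, the cytosolic thiolase, had 0.065 and 0.035, and ACAT2 was at -0.027 with rescaled values. ACAT2 overlaps TCP1 and SOD2 on the opposite strand, and whether the libraries kept strand is not given in the sources used here.

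In the squalene and sterol steps, 8 of 9 tested members were lower in both pairs, against 27.4% of all genes, and 1, SQLE, was higher in both, against 43.2%. A difference between the role groups was not tested. The 9 members had a median log2 fold change of -0.14 with let-7a and -0.16 with miRCon. None of the 9 passed the test over all genes by limma (0 called), against 3.43% of all genes. At an unadjusted p under 0.05 there were 3 lower and 1 higher, against 9.4% and 17.0% of all genes. FDFT1, the squalene synthase that commits farnesyl diphosphate to sterols, had the largest difference of all members and lies on chromosome 8 from 11795573 to 11839309, on the plus strand. It was at 11.1 and 10.9 TPM-like in the siMYCN libraries with let-7a and with miRCon, against 18.4 and 28.0 in the siCon libraries with let-7a and with miRCon. Both siMYCN libraries were lower than both siCon libraries, and the siCon libraries differed from each other. FDFT1 was the only member past 1.5-fold in both pairs, where 1.61% of all genes were as far down and 2.85% as far up.

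The changes of FDFT1 were -39.8% with let-7a and -60.9% with miRCon, or log2 fold changes of -0.68 and -1.28. Over both pairs the value was -0.98 ± 0.19 (model SE from limma, 4 libraries), with an adjusted p of 0.0593 by limma. With rescaled values the adjusted p was 0.0261, and it ranged from 0.0261 to 0.199 over 5 alternatives. FDFT1 was also the only tested member whose 2 siMYCN effects differed by at least 1.5-fold, at 0.60 higher with let-7a, against 4.6% of all genes that far higher and 5.43% that far lower. That difference has no test, since it is the only residual degree of freedom.

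SQLE, the squalene epoxidase that follows FDFT1, ran against the rest, with 97.0 and 98.7 TPM-like with siMYCN, against 85.02 and 83.4 with siCon. Its log2 fold changes were 0.19 with let-7a and 0.24 with miRCon (adjusted p = 0.175 by limma over both pairs). MSMO1, the sterol C4-methyl oxidase, had 38.9 and 40.5 with siMYCN, against 52.0 and 45.5 with siCon, and DHCR7, a reductase of the final stage of cholesterol synthesis, had 62.3 and 58.3, against 73.7 and 69.1. Both were lower in each siMYCN library than in either siCon library, and over both pairs MSMO1 was at -0.29 and DHCR7 at -0.24 on the log2 scale (adjusted p = 0.186 and 0.163 by limma). The isomerase EBP had 48.5 and 43.2 with siMYCN, against 52.6 and 51.4 with siCon. The dehydrogenase NSDHL had 44.1 and 46.2, against 48.9 and 51.6, and the desaturase SC5D had 59.5 and 63.1, against 65.3 and 69.9. EBP, NSDHL and SC5D were each lower in both pairs, as were 27.4% of all genes, and none was called by limma. LSS, the lanosterol synthase, had 8.67 and 10.5, against 9.12 and 10.9, and CYP51A1, the lanosterol demethylase, had 112 and 122, against 124 and 122. For LSS, both let-7a libraries lay below both miRCon libraries.

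In fatty acid synthesis, 5 of 7 members were lower in both pairs and 2 higher in both, against 27.4% and 43.2% of all genes. None was called by limma (0 of 7), against 3.43% of all genes. At an unadjusted p under 0.05 there were 2 lower and 0 higher, against 9.4% and 17.0% of all genes. ACLY had 300.5 and 288 TPM-like in the siMYCN libraries with let-7a and with miRCon, against 334 and 343 in the siCon libraries. FADS1, the delta-5 desaturase of polyunsaturated fatty acids, had 58.5 and 64.8, against 72.7 and 74.4. Both were lower in each siMYCN library, with log2 fold changes over both pairs of -0.20 for ACLY and -0.25 for FADS1 (adjusted p = 0.127 and 0.157 by limma). FASN had 259 and 269 with siMYCN, against 296 and 283 with siCon, and SCD had 546 and 574, against 575 and 579. ELOVL6, the elongase that extends palmitate, had 59.0 and 72.4, against 68.9 and 80.5. SCD with siMYCN and miRCon was nearly level with siCon and let-7a, and ELOVL6 overlapped between siMYCN and siCon.

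FADS2 and ACACA were the fatty acid genes that were higher with siMYCN. FADS2, the delta-6 desaturase, had 122 and 116 TPM-like with siMYCN, against 112 and 101 with siCon. ACACA, the carboxylase that makes malonyl-CoA, had 15.5 and 19.4 with siMYCN, against 14.58 and 14.65 with siCon. FADS2 and ACACA were each higher in both pairs, as were 43.2% of all genes. The log2 fold changes over both pairs were 0.16 for FADS2 and 0.23 for ACACA (adjusted p = 0.251 and 0.394 by limma). FADS1 and FADS2 lie on opposite strands and overlap in GENCODE, so their reads may not have been told apart.

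let-7a was set against miRCon once in siMYCN cells and once in siCon cells, again in separate libraries. The pathway showed little change with let-7a. No tested member was called by limma (0 of 27, and 0% of all genes). LIN28B was not called either, so the absence of a call does not show the absence of a change. At an unadjusted p under 0.05 there was 1 lower member and 0 higher, against 4.71% and 2.77% of all genes. None was past 1.5-fold in both pairs (0 of 27, against 0.257% of genes lower and 0.204% higher). Of 27, 10 were lower in both pairs (37.0%, against 33.5% of all genes) and 6 higher in both (22.2%, against 22.6%). The median log2 fold change of members was -0.057 with siMYCN and 0.026 with siCon, beside -0.039 and -0.018 over all genes.

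**Figure D4:**
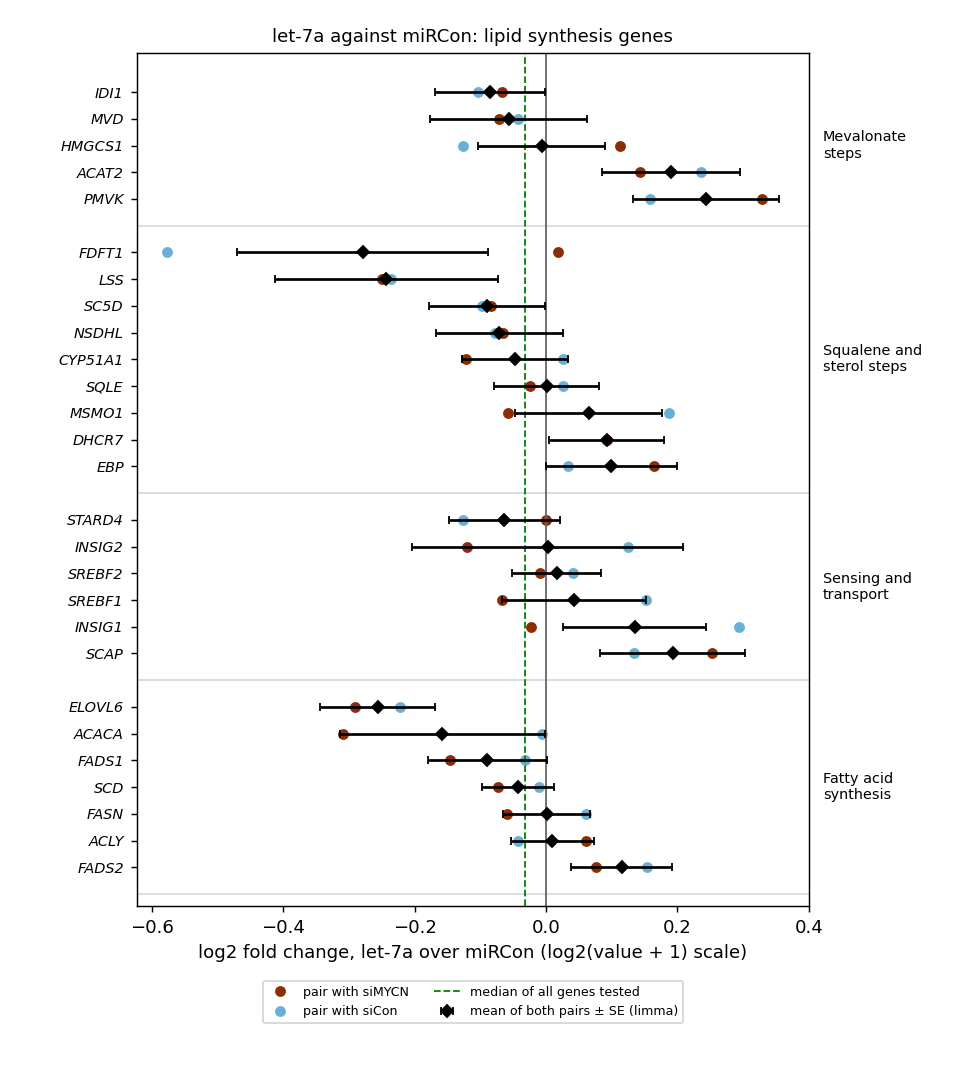
Log2 fold change of let-7a over miRCon for the 27 tested members, by role; circles are single pairs of libraries (with siMYCN or with siCon), diamonds the mean of both pairs with its SE from the additive limma model, and the dashed line the median of all genes tested, -0.031. ELOVL6 and LSS are lower in both pairs, PMVK, ACAT2 and SCAP higher in both, and FDFT1 is lower in the siCon pair only.

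ELOVL6 was the member with an unadjusted p under 0.05 for let-7a. It had 59.0 TPM-like with let-7a and 72.4 with miRCon in siMYCN cells, and 68.9 with let-7a and 80.5 with miRCon in siCon cells. It was lower with let-7a within each siRNA state, and the library with both treatments was lowest. The log2 fold changes were -0.29 with siMYCN and -0.22 with siCon, and -0.26 ± 0.087 over both pairs (SE, n = 4 libraries; adjusted p = 0.663 by limma). Its 3' UTR held none of the let-7 words searched. LSS was also lower with let-7a in both states, at -0.25 with siMYCN and -0.24 with siCon on the log2 scale (adjusted p = 0.744 by limma over both pairs). In the same order ACAT2 had 0.14 and 0.24, PMVK 0.33 and 0.16, SCAP 0.25 and 0.13, and ACACA -0.31 and -0.0066.

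The 3 members whose let-7 words are shown had small changes with let-7a, and none was called by limma. STARD4, with an 8mer, had 75.6 TPM-like with let-7a and 75.6 with miRCon in siMYCN cells, and 104 with let-7a and 114 with miRCon in siCon cells, so it was level between let-7a and miRCon in siMYCN cells and slightly lower with let-7a in siCon cells. SCD, with an 8mer, had changes with let-7a of -4.98% in siMYCN cells and -0.774% in siCon cells. For SREBF2 the changes were -0.589% in siMYCN cells and 2.87% in siCon cells. INSIG1, which holds no such word, was 22.8% higher with let-7a in siCon cells and had a change of -1.64% in siMYCN cells. HMGCS1 also split, at 0.11 on the log2 scale in siMYCN cells and -0.13 in siCon cells, with a mean of -0.0066 that was 0.020 with rescaled values.

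Set against cells with neither treatment, cells with siMYCN and let-7a had 19 of 27 tested members lower and 8 higher, in a single pair of libraries with no test. The median was -0.13 on the log2 scale, beside 0.028 for all genes. At least 1.5-fold, 2 were lower, FDFT1 at -1.26 and STARD4 at -0.59, against 5.97% of all genes, and 0 were higher, against 7.5%. ELOVL6 was at -0.44 and SCAP, at 0.46, was the highest. This pair shares its libraries with the comparisons above.

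Among genes around the pathway, taken from lists chosen for their function, MBTPS1 rose with siMYCN. It encodes the Golgi protease (site-1 protease) that makes the first cut in SREBP. In its list, the machinery that releases and degrades SREBP and its partners, all 13 genes were tested, 1 was called higher (2.07% of all genes were) and 0 lower (1.36% of all genes). The list as a whole was mixed, with 7 higher and 5 lower in both pairs and a median log2 fold change of 0.10, beside 0.056 for all genes. MBTPS1 had 93.3 and 74.6 TPM-like in the siMYCN libraries with let-7a and with miRCon, against 42.5 and 39.8 in the siCon libraries. Both siMYCN libraries were above both siCon libraries. The log2 fold changes were 1.12 with let-7a and 0.89 with miRCon, and 1.003 ± 0.10 over both pairs (SE, n = 4 libraries; adjusted p = 0.0280 by limma). The adjusted p ranged from 0.00856 to 0.193 over 6 alternatives, and the call ended with no filter on low values (0.193) and without a trend (0.129). MBTPS1 also cuts other precursors. ERLIN2, which helps to degrade sterol-regulated membrane proteins, had 11.1 and 9.10 with siMYCN, against 14.5 and 16.2 with siCon. PGRMC1, a haem-binding membrane protein, had 181 and 227, against 155 and 155. Their log2 fold changes over both pairs were -0.56 for ERLIN2 and 0.39 for PGRMC1, and neither was called (adjusted p = 0.128 and 0.0838 by limma).

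In sterol uptake, storage, efflux and LXR genes, 10 of 16 were tested and 0 were called by limma, against 3.43% of all genes. At an unadjusted p under 0.05, 2 were higher and 2 lower, against 17.0% and 9.4% of all genes. APOE, a lipid-carrying apolipoprotein, had 11.7 and 8.18 TPM-like with siMYCN, against 3.64 and 4.13 with siCon. SCARB1, a receptor for high-density lipoprotein, had 14.1 and 24.1 with siMYCN, against 26.1 and 34.6 with siCon. It was also lower with let-7a, at log2 fold changes of -0.74 in siMYCN cells and -0.39 in siCon cells (adjusted p = 0.663 by limma over both pairs). LIPA, the lysosomal lipase that frees cholesterol from its esters, had 67.4 and 60.0 with siMYCN, against 87.2 and 89.8 with siCon. APOE, SCARB1 and LIPA had the largest siMYCN effects of this list, by which they were chosen. For siMYCN the adjusted p was 0.0644 for APOE, 0.0644 for SCARB1 and 0.0617 for LIPA by limma. With rescaled values these were 0.0460, 0.0306 and 0.0288, and at a mean of at least 20 that of LIPA was 0.0477.

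Of 20 other fatty acid synthesis and activation genes, 13 were tested and 0 called by limma, against 3.43% of all genes. At an unadjusted p under 0.05, 2 were higher and 1 lower, no larger a share than the 17.0% and 9.4% of all genes. SCD5, a second stearoyl-CoA desaturase, had 9.26 and 5.92 TPM-like with siMYCN, against 13.1 and 14.1 with siCon (adjusted p = 0.104 by limma). SCD5, MECR and MCAT had the largest siMYCN effects of this list, by which they were chosen. In mitochondrial fatty acid synthesis, MECR had 4.65 and 4.68 with siMYCN, against 6.41 and 6.50 with siCon. MCAT had 53.6 and 47.7, against 40.8 and 40.0. OXSM, of the same pathway and added after its values were seen, had 13.3 and 12.3, against 12.1 and 16.1. Its direction differed between the pairs. MECR was lower and MCAT higher in both siMYCN libraries, and neither was called. ELOVL5, an elongase of polyunsaturated fatty acids that was chosen after its values were seen, had 236 and 255 with siMYCN, against 198 and 196 with siCon. It was higher in both siMYCN libraries and had the lowest adjusted p of this list (0.0683 by limma). Of 13 isoprenoid genes, 12 were tested and 0 called by limma, against 3.43% of all genes. At an unadjusted p under 0.05, 2 were higher and 1 lower, close to the 17.0% and 9.4% of all genes. RABGGTB, a subunit of the enzyme that attaches geranylgeranyl groups to RAB proteins, had 12.4 and 10.2 with siMYCN, against 6.77 and 6.77 with siCon. NUS1, of dolichol synthesis, had 109.9 and 119, against 85.3 and 86.8, and FNTA, a subunit of the farnesyl and geranylgeranyl transferases, had 18.6 and 21.9, against 24.4 and 28.3. RABGGTB, NUS1 and FNTA had the largest siMYCN effects of this list, by which they were chosen. Their log2 fold changes over both pairs were 0.66 for RABGGTB, 0.40 for NUS1 and -0.36 for FNTA. Of these, NUS1 had an adjusted p of 0.0604 by limma, and 0.0465 at a mean of at least 20.

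Fatty acid oxidation had 12 of 14 genes tested, with 1 called lower by limma and 0 higher, against 1.36% and 2.07% of all genes. That gene was ETFB, which passes electrons from fatty acid oxidation to the respiratory chain, with 129 and 123 TPM-like with siMYCN, against 170.1 and 182 with siCon. Its log2 fold change was -0.48 ± 0.078 over both pairs (SE, n = 4 libraries; adjusted p = 0.0469 by limma), and both siMYCN libraries lay below both siCon libraries. Its adjusted p ranged from 0.0180 to 0.193 over 6 alternatives, and the call held in 2 of them. CPT2, a carnitine transferase, had 7.61 and 6.80 with siMYCN, against 9.54 and 11.2 with siCon, and ACADM, the medium-chain dehydrogenase, had 4.83 and 6.85, against 7.56 and 6.79. Neither CPT2 nor ACADM was called, and ACADM overlapped between siMYCN and siCon. ACADVL, one of the genes not tested, had a mean of only 0.382, and whether such low values reflect low transcript levels was not tested.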

How the data were processed

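PolyA RNA was sequenced from 1 library in each of 4 groups, and groups were taken from the sample labels. Per the values of the deposited table (19837 rows), its entries are natural logs of a TPM-like value plus 1: back-transformed, each library totalled 855811 to 862049, against 143211 to 147588 if base 2 is assumed. The submitters' processing notes name HISAT 0.1.6, Salmon 0.3.2 and GRCh38, with no role or order; no source used here gives the annotation. Such values keep no depth, so no counting error is given. Rows for vector sequences (11) were left out, and 28 rows whose names had become dates were kept in the fit.

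Values were back-transformed, and 9324 genes with a mean of at least 5 were fitted with limma 3.58.1 (R 4.3.3), with an intensity trend, on log2(value + 1), in an additive model of siRNA and mimic, with Benjamini-Hochberg adjustment over all genes at 0.05. The fit has 1 residual degree of freedom, the interaction, moderated with 4.30 prior degrees of freedom, so p-values assume that the treatments act additively and borrow most of their spread from the other genes. Genes that differed by 1.5-fold or more, in 1 direction, in both separate pairs were also counted. Some sequence matches are not reported here. Members, lists and tests were chosen with earlier results of these data known. Genes given value by value were those called or past the fold, the SREBF, SCAP and INSIG genes, the 2 in each role group with the largest mean effect of each treatment, and, in each wider list, those called and up to 3 with the largest siMYCN effect; the remaining members were added after their values were seen. Alternatives were other pseudocounts, filters, fold sizes and adjusted p thresholds, rescaling by median ratios, no trend, and each pair alone. Python 3.11.15, pandas 2.3.3, NumPy 2.4.6 and Matplotlib 3.10.9 were used.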

Additional observations from a re-analysis of the deposited data

Results flagged for a closer look

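FDPS, which makes farnesyl diphosphate, had siMYCN effects of opposite direction in the 2 pairs, at -0.88 on the log2 scale with let-7a and 1.07 with miRCon. Its levels were 3.11 and 3.78 TPM-like in the siMYCN libraries with let-7a and with miRCon, against 6.56 and 1.28 in the siCon libraries. The difference between the pairs was not tested, since each group had 1 library and the gene's mean was under 5.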

How the results depend on the processing

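Each group had 1 library and the labels give no replicate numbers, so no pairing by replicate was possible. The pairs used here are libraries that share a mimic or an siRNA. Leaving out a library leaves no residual degrees of freedom, so each pair was taken alone. For siMYCN, 1 member was called by limma (STARD4): 0 were with a pseudocount of 5, with no filter and without a trend, and 3 (FDFT1, INSIG1 and STARD4) with rescaled values and at an adjusted p under 0.1. Past the fold in both pairs was 1 member (FDFT1), 0 with a pseudocount of 5, at a mean of at least 20 and at 2-fold, and 2 at a smaller fold. The median of members, -0.13, was -0.20 with rescaled values and -0.072 in the miRCon pair alone. For both treatments against neither, 2 members were past the fold, 1 with a pseudocount of 5, at a mean of at least 20 and at 2-fold, 4 with no filter and 6 at a smaller fold. The siMYCN effects differed past the fold in 1 member, 0 with a pseudocount of 5, at a mean of at least 20 and at 2-fold, and 3 with no filter. With rescaled values the direction turned for ACAT2 with siMYCN (-0.027) and HMGCS1 with let-7a (0.020). A mean of at least 20 removes FDFT1 by construction; the other causes were not tested. The counts for let-7a stayed at 0 under every alternative run. With 1 library a group and unknown depth, effects as small as most of these cannot be told from the spread between libraries.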
